A study of Mus musculus with 4 samples.

Results

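Hair follicle stem cells sorted from mouse back skin were profiled by ATAC-seq, in which a transposase cuts accessible chromatin, and the regions described here are peaks at the ends of protein-coding genes that were called in 1 genotype and had no overlapping peak in the other. The double knockout mice (dKO) carried Sox9-CreER with NFIBfl/fl, NFIXfl/fl and R26-YFPfl/fl, and their WT littermates carried NFIBfl/fl, NFIXfl/fl and R26-YFPfl/fl without Cre, so both groups had the floxed alleles. CreER is an inducible recombinase, here driven from Sox9, and the labels do not state how it was induced. Both groups were male, at postnatal day 70 in the resting phase of the hair cycle, with 2 mice in each (dKO mice 14 and 16, WT mice 13 and 15), and 1 peak list stood for the 2 mice of each genotype. Cells of both groups were sorted as negative for DAPI and Sca-1 and positive for integrin α6 and CD34. The dKO cells also had to be YFP positive, so that the deletion, Cre and this additional gate cannot be told apart.

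The regions were chosen by the presence or absence of a peak. The summit lay on an autosome at most 1 kb from a start or end of a protein-coding gene in mm10, and no peak of the other list shared 1 bp or more with the peak. There were 433 dKO-only and 785 WT-only regions, 1218 of the 131745 peaks in both lists (63548 dKO and 68197 WT). Of all autosomal peaks, 17.6% of the dKO list and 24.5% of the WT list had no partner in the other list. The counts of regions rest on the choice itself and describe the 2 lists, with no test behind them. With 1 list per genotype there was no replicate check, and the intervals on shares and ratios are 95% intervals for counting error alone. The lack of a call in a list does not show closed chromatin, and fewer accessible cells cannot be told apart from less signal per cell.

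NFIB and NFIX belong to the nuclear factor I family, which binds DNA as dimers at a palindrome whose arm is TTGGC, and more weakly at a single arm. Both are transcription factors of hair follicle stem cells, the quiescent cells of the bulge that renew the hair follicle in each cycle. Accessible chromatin at a gene's 5′ end usually marks its promoter, and most promoters rich in CpG are accessible in many cell types. Accessible sites at 3′ ends are less common.

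Start windows from RefSeq (GRCm38.p6, 250 bases before to 50 after the annotated start) are shown for 6 genes whose window was overlapped by a peak of 1 list. Hrh1 (histamine receptor H1) and Oasl1 (an interferon-induced oligoadenylate synthetase-like protein) are the dKO-only and the WT-only gene whose window held the whole NFI palindrome, TTGGC, any 5 bases, then GCCAA, which is in capitals in both. The window of Hrh1 is chr6:114397686-114397985, plus strand, and that of Oasl1 is chr5:114922990-114923289, plus strand.
Hrh1: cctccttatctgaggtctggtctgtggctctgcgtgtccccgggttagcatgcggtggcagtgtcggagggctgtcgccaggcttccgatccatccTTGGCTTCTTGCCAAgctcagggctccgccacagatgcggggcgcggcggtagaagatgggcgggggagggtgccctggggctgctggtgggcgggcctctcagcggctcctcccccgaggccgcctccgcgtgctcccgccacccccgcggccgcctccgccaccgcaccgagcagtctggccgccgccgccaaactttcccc
Oasl1: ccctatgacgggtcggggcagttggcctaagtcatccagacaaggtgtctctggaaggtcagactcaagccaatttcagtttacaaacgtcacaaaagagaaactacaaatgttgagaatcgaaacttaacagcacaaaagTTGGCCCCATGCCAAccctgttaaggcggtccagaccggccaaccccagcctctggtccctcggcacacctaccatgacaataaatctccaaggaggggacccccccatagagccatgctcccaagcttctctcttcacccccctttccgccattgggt
The other 4 windows belong to the 2 strongest regions of each list whose summit lay in the window and whose window held a searched motif. Cxcl3 (chr5:90785851-90786150, plus strand) and Tmem88b (chr4:155785825-155786124, minus strand) were dKO-only, and Guca2a (chr4:119637482-119637781, plus strand) and Gramd4 (chr15:86057445-86057744, plus strand) were WT-only. Capitals mark a TATA box (TATAAA) and an E box (CACGTG) in Cxcl3. They mark a match to the AP-1 search pattern (TGANTCA, any base at N) in Tmem88b, as TGAATCA, and in Guca2a, as TGAGTCA. In Gramd4 they mark a SOX motif (ACAAAG), an AP-1 match (TGACTCA) and an NFI single-arm site (TGCCAA).
Cxcl3: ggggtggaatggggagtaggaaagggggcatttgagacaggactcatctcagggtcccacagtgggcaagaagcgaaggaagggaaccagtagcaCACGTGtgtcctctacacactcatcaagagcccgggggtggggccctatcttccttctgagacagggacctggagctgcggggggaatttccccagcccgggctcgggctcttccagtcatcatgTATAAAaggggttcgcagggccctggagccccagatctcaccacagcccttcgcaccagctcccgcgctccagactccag
Tmem88b: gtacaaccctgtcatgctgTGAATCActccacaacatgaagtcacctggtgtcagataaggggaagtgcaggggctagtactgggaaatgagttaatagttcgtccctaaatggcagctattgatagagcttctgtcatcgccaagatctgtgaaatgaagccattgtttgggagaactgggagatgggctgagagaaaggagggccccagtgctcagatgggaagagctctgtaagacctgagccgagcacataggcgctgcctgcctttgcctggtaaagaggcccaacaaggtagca
Guca2a: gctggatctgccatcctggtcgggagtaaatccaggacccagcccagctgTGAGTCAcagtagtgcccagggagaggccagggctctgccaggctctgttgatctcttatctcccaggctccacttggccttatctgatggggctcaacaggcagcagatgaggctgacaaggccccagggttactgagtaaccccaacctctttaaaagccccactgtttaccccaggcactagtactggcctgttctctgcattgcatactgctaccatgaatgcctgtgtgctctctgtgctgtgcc
Gramd4: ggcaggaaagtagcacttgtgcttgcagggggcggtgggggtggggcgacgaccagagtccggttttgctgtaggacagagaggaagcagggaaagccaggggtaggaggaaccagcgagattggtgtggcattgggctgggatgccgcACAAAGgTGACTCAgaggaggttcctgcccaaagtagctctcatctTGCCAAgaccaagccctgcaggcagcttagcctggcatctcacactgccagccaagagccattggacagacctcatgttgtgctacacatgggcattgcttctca

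Several stem cell genes were accessible at gene ends in both lists. Lhx2, Sox9, Krt15, Cd34 and Itga6, of which the last 2 encode the sort markers CD34 and integrin α6, each had a gene-end peak in both lists and none without a partner. Nfatc1, another gene of these stem cells, had no gene-end peak in either list. Of the 24 stem cell identity genes with a gene-end peak, described below, 4 had a WT-only region and none a dKO-only region. The largest fold enrichment over local background at Cd34 was 11.1 in the dKO list and 7.27 in the WT list, as given by the peak caller. Ly6a, Ptprc and Pecam1, genes of Sca-1, of leukocytes and of endothelium, had no gene-end peak in either list. Other markers of such cells did: 3 of 8 endothelial and 2 of 9 immune genes had a gene-end peak in either list. So did 2 of 8 fibroblast and 3 of 8 melanocyte genes, and the purity of the sort was not tested. At the targeted genes, Nfib had a shared gene-end peak, with fold 4.04 in the dKO list and 4.51 in the WT list. Nfix had a shared peak at its 5′ end, with fold 2.44 in the dKO list and 4.89 in the WT list. Nfix also had 2 WT-only regions, 790 bp inside its 3′ end with fold 3.27 and 828 bp before its 5′ end with fold 2.61. Peaks at gene ends do not measure the deletion.

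Regions of 1 list were rarer at gene ends than elsewhere. Against 17.6% of all autosomal dKO peaks and 24.5% of all autosomal WT peaks, the shares at gene ends were 3.66% (433 of 11816, 3.34 to 4.02) in the dKO list and 6.56% (785 of 11970, 6.13 to 7.02) in the WT list. Gene-end peaks lay in either list at 12579 genes, of which 442 (3.51%) had a dKO-only region and 809 (6.43%) a WT-only region, and 25 genes had both. By chromosome the share at gene ends lay between 2.00% (chromosome 8) and 5.34% (chromosome 1) in the dKO list and between 4.18% (chromosome 13) and 9.15% (chromosome 12) in the WT list.

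Starts and 3′ ends of genes differed in how many regions each list held. Strand was known for 328 dKO-only and 597 WT-only regions. Of those, 114 dKO-only regions (34.8%) and 337 WT-only regions (56.4%) were nearest to a 3′ end, against 7.69% of dKO peaks and 7.59% of WT peaks that were shared. At 5′ ends 2.51% of dKO peaks (2.201 to 2.867) and 3.08% of WT peaks (2.73 to 3.47) had no partner. At 3′ ends these shares were 14.1% (11.9 to 16.7) in the dKO list and 33.4% (30.6 to 36.4) in the WT list. Away from gene ends they were 20.9% for dKO peaks and 28.5% for WT peaks. The dKO share at 3′ ends lay below that of dKO peaks elsewhere, and the WT share at 3′ ends lay above that of WT peaks elsewhere.

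**Figure D1:**
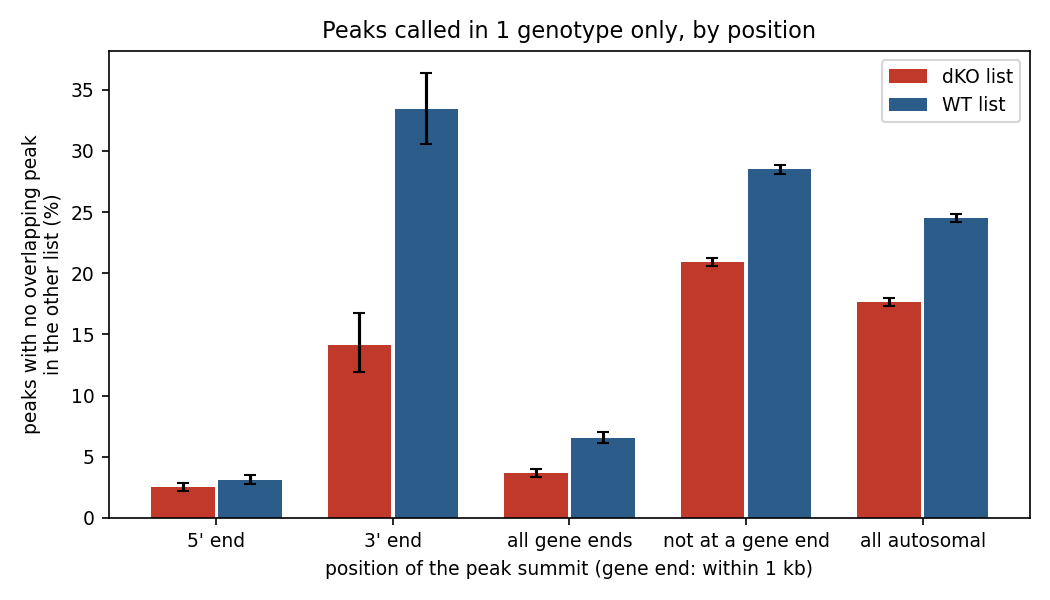
Share of peaks (%) with no overlapping peak in the other list, by the position of the summit, for the dKO list (red) and the WT list (blue), with 95% Wilson intervals. At 3′ ends the dKO bar stands at 14.1% and the WT bar at 33.4%, and at 5′ ends the dKO bar stands at 2.51% and the WT bar at 3.08%.

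Counted as a ratio of WT-only over dKO-only regions, there were 2.96 (2.39 to 3.66) at 3′ ends, 1.21 (1.01 to 1.46) at 5′ ends and 1.48 (1.45 to 1.52) away from gene ends. The 3′ ratio was 2.54, 3.15 and 3.20 at low, middle and high gene density (up to 11, up to 22 and over 22 genes within 500 kb), and 2.83, 2.93 and 3.29 on chromosomes 1 to 6, 7 to 12 and 13 to 19. The 5′ ratio was 0.800 (0.596 to 1.07) at low, 1.47 (1.05 to 2.06) at middle and 1.68 (1.21 to 2.34) at high density, and the interval at low density includes 1. Without peaks within 2 kb of any listed start, the 3′ ratio was 3.16. Starts were listed for 16456 of the 20661 protein-coding genes, so peaks near other starts could remain. The local background in the lists differed, at 2.73 in the dKO list and 5.29 in the WT list at its lowest, a ratio of 1.94 WT over dKO. With the WT list thinned to the dKO background the 3′ ratio was 2.40 and the 5′ ratio was 0.838, and with the WT list thinned to 0.5 times that background the 3′ ratio was 1.21 and the 5′ ratio was 0.327. The thinned ratios are given without intervals, and the ratio away from gene ends was not computed under thinning. The part of depth in these ratios was not tested beyond these values.

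The regions were weak within their own list. The median fold enrichment was 4.02 in dKO-only and 3.800 in WT-only regions, against 10.7 in dKO and 9.88 in WT gene-end peaks that were shared. Median width was 371 bp in dKO-only and 395 bp in WT-only regions, against 1160 bp in shared dKO peaks and 1292 bp in shared WT peaks. The weakest 20% of the list by −log10 q held 58.7% of dKO-only and 52.1% of WT-only regions, and the stronger 50% held 19 dKO-only and 65 WT-only regions. Within that weakest 20%, 35.6% of dKO and 37.4% of WT peaks at 5′ ends had no partner. At 3′ ends of the same 20% these shares were 35.9% in the dKO list and 67.1% in the WT list. In the next 20% the 3′ shares were 18.1% for dKO and 48.9% for WT peaks. Peaks away from gene ends had 47.2% in the dKO list and 57.6% in the WT list in the weakest 20%. The 3′ share was higher in the WT list than in the dKO list in each of the 5 bins of strength.

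**Figure D2:**
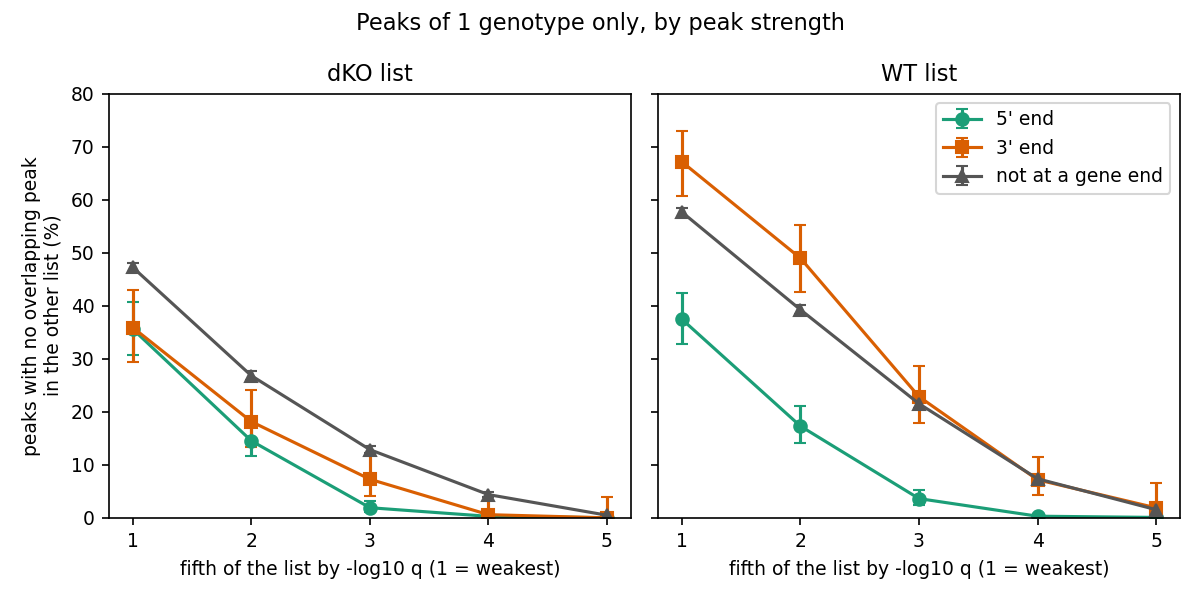
Share of peaks (%) with no partner in the other list, in 5 equal bins of each list's −log10 q, for peaks at 5′ ends, at 3′ ends and away from gene ends, with 95% Wilson intervals and the dKO list left of the WT list. The 3′ line runs below the grey line in the dKO list and at or above it in the weakest 3 bins of the WT list.

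At 5′ ends the regions lay around the start, and shared peaks were more tightly placed. The median distance of 5′ regions from the start was 248.5 bp for dKO-only and 322 bp for WT-only regions, against 120.0 bp for shared dKO and 106 bp for shared WT peaks. The share without a partner at 5′ ends was 1.58% of dKO and 1.48% of WT peaks within 100 bp of the start, and 5.25% of dKO and 8.75% of WT peaks over 500 bp away. At 3′ ends it lay between 11.5% and 16.8% for dKO peaks and between 26.8% and 34.0% for WT peaks over the same distances. Beyond the 3′ end it was 14.4% for dKO and 37.1% for WT peaks, and inside the gene 13.9% for dKO and 29.1% for WT peaks. At 3′ ends the summits were spread over the whole 2 kb around the end, with medians of 510 bp for dKO-only and 527 bp for WT-only regions and of 505.5 bp for shared dKO and 517 bp for shared WT peaks. The nearest peak of the other list lay a median of 9933 bp away from dKO-only and 4799 bp away from WT-only regions. Within 500 bp of such a region lay a peak of the other list for 44 dKO-only (10.2%) and 83 WT-only regions (10.6%).

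**Figure D3:**
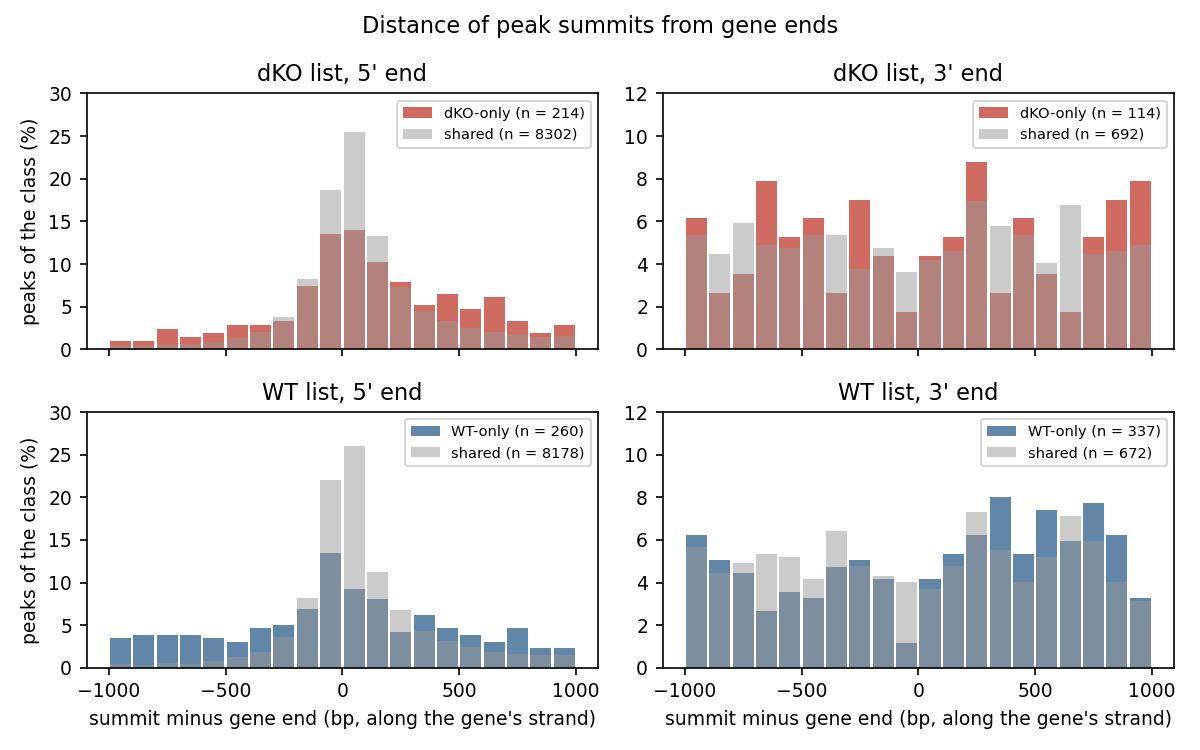
Distance of the summit from the nearest gene end (bp, positive along the gene's strand), as a share (%) of dKO-only or WT-only regions (colour) and of shared peaks (grey), at 5′ and 3′ ends. The 5′ panels peak at the start, and the 3′ panels are uneven with no peak at the end itself, with 214 dKO-only and 260 WT-only regions at 5′ ends and 114 dKO-only and 337 WT-only regions at 3′ ends.

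Some of the genes had another accessible site at an end in both lists. Such a shared gene-end peak at the same gene was present for 28.9% of dKO-only and 55.2% of WT-only regions. At 5′ ends this held for 13.6% of dKO-only and 29.2% of WT-only regions, and at 3′ ends for 59.6% of dKO-only and 75.4% of WT-only regions. For a region at a 3′ end, the other end of the gene is its 5′ end, where most shared peaks lay. The counts in this paragraph have no share over all genes beside them, so how far either side departs from all genes is unknown. The sides also differed in the share of regions at 3′ ends, 34.8% of dKO-only and 56.4% of WT-only regions with known strand. The other list had no summit at either end of 294 of the 442 genes with a dKO-only region (66.5%) and of 351 of the 809 genes with a WT-only region (43.4%). At 7 genes there was more than 1 dKO-only region and at 33 genes more than 1 WT-only region.

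The strongest dKO-only region by −log10 q was at the 5′ end of Zfp932, a zinc finger gene (chr5:109996111-109996755, summit 12 bp inside the gene), with a pileup of 74, fold 20.1 and a −log10 q of 74.9. Fold enrichment was 14.4 at Fgl1, a secreted fibrinogen-like protein, and 14.2 at Chgb, which encodes chromogranin B of secretory granules. At Casr, the calcium-sensing receptor, both ends carried a dKO-only region, with fold 13.1 at the 3′ end and 5.63 at the 5′ end. Next in order came Iqsec3, a synaptic exchange factor (fold 12.3), Skint8, of the Skint family of skin and thymus (11.5), and Egf, the epidermal growth factor (8.88). The other members of the first 12 were Kcnc1, a voltage-gated potassium channel (10.7), Klrb1b, a receptor of natural killer cells (9.80), Tdrd5, of the germ line (9.66), and Cxcl3, a chemokine for neutrophils, and Pde7b, a cAMP phosphodiesterase (9.39 each). Of these 12 regions, 8 were at 5′ ends, 3 at 3′ ends and 1, that of Fgl1, had no strand in the table used. All but Fgl1 and Pde7b were also among the 10 strongest at genes with no WT summit at either end. Pde7b had the same −log10 q as Cxcl3 and no shared gene-end peak. The nearest WT peak to its region lay 117636 bp away, so its absence from those 10 does not show a WT summit.

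The strongest WT-only region was at Ccl7, a monocyte chemokine (chr11:82045427-82046296, summit 25 bp outside the gene), with a pileup of 300, fold 16.03 and a −log10 q of 245. Its neighbour Ccl2, also a monocyte chemokine, had fold 7.87 and a −log10 q of 141. Guca2a, guanylin of the gut epithelium, had fold 13.2 at its 5′ end, and Gm13286, a predicted gene, had 21.2. At 3′ ends lay the regions of Lmo1, a LIM-only transcription cofactor (fold 8.60), Pigo, an enzyme of GPI anchor synthesis (10.2), Aoc2, an amine oxidase (11.7), and Smarcc2, a subunit of the BAF chromatin remodelling complex (4.46). Of the strongest 12 WT-only regions, 4 were at 3′ ends and 4 at 5′ ends. Gramd4 (7.44) and Gm38457 (4.23) had theirs at 5′ ends, and Ccl7, Ccl2, Ccn5, a matricellular protein (11.4), and Scrib, a polarity protein (11.7), had no strand in the table used. None of Ccl7, Ccl2, Guca2a, Gm13286, Pigo, Ccn5 and Aoc2 had a dKO summit at either end. Gramd4 had none within 1 kb either, but a dKO peak lay 328 bp from its WT-only region. A second WT peak at an end of Gramd4 had a partner in the dKO list.

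Among genes with several regions, dKO-only pairs lay at Casr, Kprp, a keratinocyte proline-rich protein, Nkx2-9, a homeobox gene, Asphd2, Padi4, a peptidylarginine deiminase, G0s2, an inhibitor of lipolysis, and Fam71a. WT-only regions numbered 3 each at Aoc2, Gm50595 and Osr1, a zinc finger transcription factor of development. Several genes had regions on both sides. Kprp had 2 dKO-only regions with fold 5.05 and 3.55 and a WT-only region with fold 3.51. At Adh4, an alcohol dehydrogenase, the dKO-only region was at the 5′ end (fold 4.02) and the WT-only region at the 3′ end (fold 7.95). At 8 places a dKO-only and a WT-only region lay within 500 bp of each other: Clstn2, Hpse, Trps1, Bpi, Litaf, Ywhaz, Tmem98 and Myl7. The gap at Trps1, a GATA-type factor of hair follicle development, was 67 bp, with fold 3.76 in the dKO-only and 3.66 in the WT-only region.

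The lists of stem cell and skin genes are small, and their counts stand beside the 3.51% of all genes with a dKO-only region and the 6.43% with a WT-only region. In lists and families, a dKO-only or WT-only gene is one with a region of that kind. Such a gene can also have a shared gene-end peak or a region of the other kind. Of 24 genes of hair follicle stem cell identity with a gene-end peak, none had a dKO-only region and 4 (16.7%) had a WT-only region, a share above the 6.43% of all genes: Tcf7l2, a WNT effector, Vdr, the vitamin D receptor, Nfix, and Nfic. Their WT-only folds were 2.55, 3.28, 3.27 and 3.50, all below the median of WT-only regions. The list includes Nfib and Nfix, the genes targeted in the dKO, so the WT-only genes include a targeted gene. The 3′ region of Nfix lay nearer to an end of Lyl1, and that of Nfic nearer to an end of Smim24. Of 11 hair lineage genes, Trps1 had a region on each side (9.09% dKO-only and 9.09% WT-only). Of 20 genes of quiescence and BMP signalling, Foxp1 had a dKO-only region (fold 2.49) and Bmp4 a WT-only region (fold 3.26), 1 gene on each side. Of 27 WNT genes, Wnt3 (fold 5.36) and Rspo3 (fold 3.76) had dKO-only regions (7.41%, against 3.51% of all genes) and none had a WT-only region (against 6.43%). Of 21 wound and stress genes, Ereg, an EGF receptor ligand, was dKO-only (fold 4.02), and Atf3, Fos and Stat3 were WT-only (2.35, 1.59 and 2.10), the last 3 at 3′ ends. These are 4.76% dKO-only, against 3.51% of all genes, and 14.3% WT-only, against 6.43%. Of 17 barrier genes, Sprr1b had a dKO-only region (5.88%, fold 5.10), and of 8 upper follicle genes, the defensin Defb6 had one (12.5%, fold 3.22), against 3.51% of all genes, and neither list had a WT-only region. Of 21 cell cycle genes, Ccnd2 had a WT-only region (4.76%, against 6.43% of all genes), with fold 2.29, and none was dKO-only. The lists for sebaceous gland (9 genes with a gene-end peak) and adhesion and basal layer (13) had none on either side. Among markers of other cells, Elavl4 was dKO-only (fold 4.02), 1 of 6 neuron and Schwann cell genes, and Ckm was WT-only (fold 4.45), 1 of 4 muscle genes. None was found among the 2 fibroblast, 3 melanocyte, 3 endothelial and 2 immune markers with a gene-end peak. These marker lists are too short to be read against the shares of all genes.

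Gene families differed in how many of their genes had such a region. Against 3.51% of all genes with a dKO-only region and 6.43% with a WT-only region, none of 54 adhesion and orphan G-protein-coupled receptors had a dKO-only region and 11 (20.4%) had a WT-only one, with Adgrg6, of Schwann cell myelination, at fold 9.60. Developmental transcription factors had 10 dKO-only (7.41%) and 26 WT-only genes (19.3%) of 135, including Sox13 (fold 7.47) among the WT-only genes, and 1 gene is counted on both sides. Keratins and keratin-associated proteins had 2 dKO-only genes, Krt31 and Krt23, and 8 WT-only genes of 30, among them Krt12 (fold 11.4), Krtap11-1 (8.29) and Krt19 (3.78). Semaphorins, ephrins and their receptors, a name pattern that also takes in Slitrk3, had 7 dKO-only (13.5%) and 2 WT-only genes (3.85%) of 52. Ion channels had 10 dKO-only (12.05%) and 6 WT-only genes (7.23%) of 83, with 2 genes counted on both sides, and Kcnc1 was the strongest of the dKO-only ones. Serine proteases and serpins had 7 dKO-only (17.9%) and 6 WT-only genes (15.4%) of 39. Families of genes active in every cell had few: ribosomal proteins had 1 dKO-only name, the kinase-like Rps6kl1, and 2 WT-only genes of 79. Solute carriers had 12 dKO-only (4.86%) and 26 WT-only genes (10.5%) of 247. Among the WT-only ones was Slc26a9, an anion channel and transporter (fold 6.92 at its 3′ end). Neurotransmitter receptors had 5 dKO-only genes (12.5%), among them the serotonin receptors Htr5b (fold 6.44) and Htr2a (3.49), and 3 WT-only genes (7.50%) of 40. Cadherins and protocadherins had 2 dKO-only genes, Cdh2 and Pcdhb16, and 5 WT-only genes of 44, with Cdh17 at fold 9.84. Interleukin and chemokine names, a pattern that takes in the receptor gene Il10ra, had 4 genes on each side of 48. C2H2 zinc finger genes had 7 dKO-only (2.19%) and 9 WT-only genes (2.82%) of 319, both below the shares of all genes, although Zfp932 led the dKO-only regions. Histone genes had none dKO-only and 2 WT-only genes of 63, H3c4 and H2ac7, which share 1 region with fold 2.97. These counts are descriptions, and no family was tested against others.

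**Figure D4:**
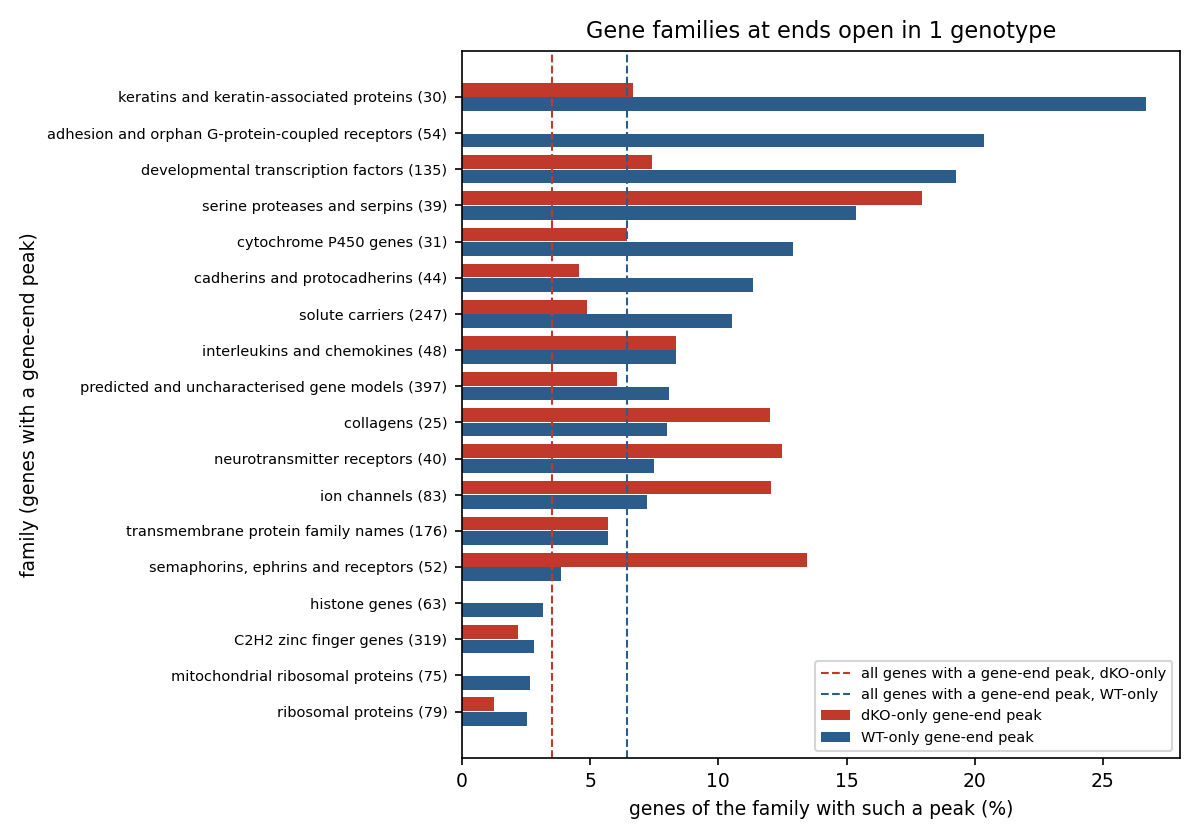
Share (%) of the genes of each family with a gene-end peak that had a dKO-only (red, upper bar) or WT-only (blue, lower bar) region, for families of 20 or more such genes, with dashed lines for all genes at 3.51% (dKO-only) and 6.43% (WT-only). Keratins and the adhesion and orphan G-protein-coupled receptors reach 26.7% and 20.4% on the WT-only side.

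The start windows of these genes were poorer in CpG than those under shared peaks. Windows overlapped by dKO-only regions alone numbered 135 (131 genes) and by WT-only regions alone 137 (131 genes), of 20084 windows in the table. The median ratio of observed to expected CpG was 0.542 in dKO-only and 0.502 in WT-only windows, against 0.796 under shared peaks and 0.206 where no peak lay. The share of windows below a ratio of 0.6 was 57.8% (49.3 to 65.8) for dKO-only and 59.9% (51.5 to 67.7) for WT-only windows, against 20.8% under shared peaks and 90.8% with no peak. The dKO-only and WT-only intervals overlapped. Within the weakest 20% of the dKO list the median ratio was 0.548 in dKO-only and 0.652 in shared windows. In that of the WT list it was 0.536 in WT-only and 0.686 in shared windows. In the next 20% it was 0.550 against 0.668 (dKO list) and 0.561 against 0.648 (WT list). In the middle 20% it was 0.359 in 7 dKO-only windows against 0.702, and 0.283 in 13 WT-only windows against 0.683. The dKO-only and WT-only medians did not rise steadily with strength over these bins.

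**Figure D5:**
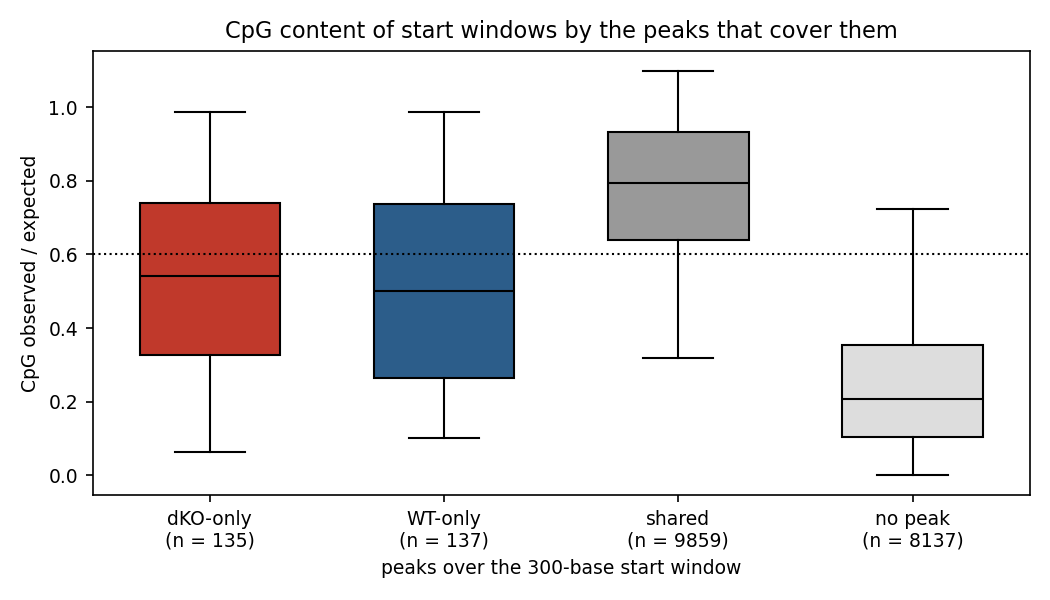
Ratio of observed to expected CpG in the 300-base start windows, by the peaks that overlap them. Boxes are quartiles with the median, whiskers run from the 5th to the 95th percentile, and the dotted line is at 0.6; the dKO-only median (0.542) and the WT-only median (0.502) lie between those of shared peaks and of windows without a peak.

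Motif counts in these windows were small. The NFI single-arm site (TTGGCA or TGCCAA, which can lie within the palindrome) was in 9.63% of dKO-only windows (13 of 135, 5.71 to 15.8) and 16.8% of WT-only windows (23 of 137, 11.5 to 23.9), against 10.0% under shared peaks, 17.1% with no peak and 13.1% of all windows. The 2 intervals overlapped. The palindrome was in 1 dKO-only window (Hrh1) and 1 WT-only window (Oasl1), of 7 in the whole table. At Hrh1 the dKO-only peak had its summit 354 bp before the start (fold 2.95), and at Oasl1 the WT-only peak had its summit 72 bp after the start (fold 3.34), in both cases outside the window shown. The AP-1 search pattern (TGANTCA, any base at N) was matched in 8.89% of dKO-only and 10.2% of WT-only windows. It was matched in 4.41% of windows under shared peaks, in 10.2% of windows with no peak and in 7.06% of all windows. The ETS motif (CCGGAAG or CTTCCGG) was in 4.44% of dKO-only and 5.11% of WT-only windows, and in 19.7% under shared peaks, 2.64% with no peak and 11.9% of all windows. The TATA box (TATAAA or TTTATA) was in 14.1% of dKO-only and 10.9% of WT-only windows, against 5.98% under shared peaks, 22.3% with no peak and 12.7% of all windows. In the weakest 20% of the dKO list it was in 16% of dKO-only and 11.6% of shared windows. In that of the WT list it was in 10.1% of WT-only and 7.5% of shared windows. The other motifs were not split by peak strength. The SOX motif (ACAAAG or CTTTGT) was in 13.3% of dKO-only and 12.4% of WT-only windows, 12.2% under shared peaks, 22.5% with no peak and 16.6% of all windows. The E box (CACGTG) was in 5.93% of dKO-only and 7.30% of WT-only windows, 10.6% under shared peaks, 4.44% with no peak and 7.89% of all windows. The cyclic AMP response element (TGACGTCA) was in 2.96% of dKO-only windows and in 0 of 137 WT-only windows (0 to 2.73%), against 3.63% under shared peaks, 0.725% with no peak and 2.30% of all windows. Both strands were searched. A motif match is a description of the letters and does not show binding.

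Peaks next to the limits that defined the regions had nearly the same distances on either side. Just inside 1 kb of an end lay Bub1b (996 bp) and Vwa3b (997 bp) in the dKO list and Mrm1 and Snai1 (999 bp each) in the WT list, and just outside lay Erlin1 and Gm5544 (1002 bp each) in the dKO list and Sytl3 (1003 bp) and Rps10 (1005 bp) in the WT list. The smallest gaps to the other list were 67 bp for dKO-only regions, at Trps1, and 62 bp for WT-only regions, at Fbxo10. The smallest overlaps that made a peak shared were 6 bp in the dKO list, at Sox17, and 1 bp in the WT list, at Fibcd1.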

How the data were processed

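ATAC-seq libraries of sorted hair follicle stem cells were aligned and peaks were called with Bowtie2 2.2.9, Picard and MACS2, per the submitters' processing notes, which name the builds mm10 and GRCm38. The sources used here give no settings, no treatment of duplicates or of the transposase shift, and no word on how the 2 mice of a genotype were combined. The deposited peak lists give, per peak, a pileup signal, a fold ratio over local background, and −log10 p and −log10 q, all as written by the authors' peak caller; the headings of the −log10 columns were damaged in the deposited files, so these were identified by their position. These scores are the authors' and were used to describe and rank peaks within a list. Read depth is unknown. The lowest pileup was 9 in the dKO list and 14 in the WT list.

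From these files, protein-coding genes of 20661 autosomal RefSeq entries (GRCm38.p6) gave the gene ends. Strand came from RefSeq start windows for 16456 of them (79.6%), and a gene without one is given as having no strand. Exon and UTR annotation was not used here. A peak was linked to each gene end within 1 kb of its summit and counted once, at the nearest. A partner shared 1 bp or more. Shares have Wilson 95% intervals, and ratios have intervals from Poisson counts on the log scale. No p-value was computed, since each genotype has 1 list. Alternatives are in the closing section. The alternatives and results added after the data were seen are the 5′ and 3′ ratios, the WT list thinned to 0.5 times the dKO background, and 3′ ends over 2 kb from any listed start. Thinning multiplied WT pileup and background by 0.516 and kept peaks whose Poisson −log10 p stayed at or above the lowest deposited one.

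Genes named are the 12 strongest regions per side by −log10 q, those with most regions, those with regions on both sides, up to 4 per list and side, up to 3 per family and side, the 10 strongest at genes with no summit of the other list, and the regions next to each limit. From families and lists, examples are given rather than every gene the rule names. The regions, the 16 gene lists and the 20 families were chosen with earlier results of these data known. The linking step was tested on 9303 simulated peaks at known distances and partners, of which it recovered 100.0%; overlaps on the deposited lists matched bedtools 2.31.1. The analysis used Python 3.11.15, pandas 2.3.3, numpy 2.4.6 and scipy 1.17.1.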

Additional observations from a re-analysis of the deposited data

Results flagged for a closer look

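Peaks on the X chromosome were not part of the regions above and were counted apart. There, 20 dKO gene-end peaks of 387 (5.17%, 3.37 to 7.85) and 8 WT gene-end peaks of 364 (2.198%, 1.12 to 4.28) had no partner in the other list. The difference was not tested.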

How the results depend on the processing

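Of 77 values under other settings, 38 stayed within their limit (1.5 times the count, or the interval of the share or ratio), 35 moved and 4 turned the direction. Ratios here are WT-only over dKO-only. With gene ends of 500 bp there were 283 dKO-only and 442 WT-only regions, shares without a partner of 2.87% in the dKO and 4.46% in the WT list, and a shared peak at the same gene for 17.7% of dKO-only and 38.2% of WT-only regions. With gene ends of 2 kb there were 713 dKO-only and 1476 WT-only regions, with shares of 5.01% in the dKO and 10.0% in the WT list, and a shared peak for 51.9% of dKO-only and 72.3% of WT-only regions. A partner within 500 bp gave shares of 3.29% in the dKO and 5.86% in the WT list. Summits within 200 bp gave 1657 dKO-only and 1816 WT-only regions, 14.02% of the dKO and 15.2% of the WT list, a 3′ ratio of 1.95 and a 5′ ratio of 0.925. Gene-end peaks of q 1e-05 or less gave 245 dKO-only regions, shares of 2.16% in the dKO and 5.13% in the WT list, a 5′ ratio of 1.67 and a 3′ ratio of 4.39. Both lists at that q gave 2.85% of dKO peaks, a 5′ ratio of 1.72 and a 3′ ratio of 4.62. Lists of equal length gave 4.74% in the dKO and 5.27% in the WT list, a 5′ ratio of 0.674 and a 3′ ratio of 2.05. The WT list thinned to the dKO background gave 4.22% in the dKO and 5.67% in the WT list and a 5′ ratio of 0.838. Thinned to 0.5 times that, there were 769 dKO-only and 426 WT-only regions, a 5′ ratio of 0.327 and a 3′ ratio of 1.21. The 3′ ratio stayed above 1 in all of these settings, though its lowest value, 1.21, is given without an interval. The 5′ ratio did not stay above 1, and the cause was not tested. Leaving out a mouse could not be done, since each genotype has 1 list. No paired analysis was possible because each genotype has 1 list and the mice share no replicate number.

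Weak peaks dominate these regions, so read depth, which is unknown, limits each call of presence or absence. The gates differed between the genotypes and each list stands for 2 mice.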
